A study of Mus musculus with 4 samples.

Results

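Ribosome footprints on coding sequences were compared between mouse heart and tibialis anterior (TA), a fast hindlimb muscle, gene by gene. Both tissues came from 10-week-old C57BL/6J males, and the labels name no treatment. Each tissue gave 1 library of ribosome-protected fragments (RPF), the pieces of mRNA that a ribosome shields from nuclease, and 1 library of total RNA depleted of ribosomal RNA, so that there were 4 libraries. How many animals each lysate came from was not stated in the labels. Genes listed for both tissues were joined by symbol, and those with a mean coding RNA level of at least 1 RPM (reads on a coding sequence, scaled to a common total of coding reads) were kept. This gave 9843 genes, of 9906 listed in both tables and 11237 listed in either. The last gene inside this minimum was Slc35f1, with a mean of 1 RPM, and the first outside was Frat2, with 0.985 RPM.

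Heart and limb muscle are both striated, and both contract by sliding actin filaments past myosin filaments when calcium leaves the sarcoplasmic reticulum. Many of the parts are made from separate genes in each tissue, among them the myosins, the troponins and the calcium pump. The heart works without pause and draws mainly on fatty acid oxidation in densely packed mitochondria, whereas a fast limb muscle works in bursts fuelled largely by glycogen and glycolysis. Heart cells are also joined end to end by intercalated discs, where desmosomes and gap junctions sit, while limb muscle fibres are long fused cells without such joints.

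Depth was similar between the 2 footprint libraries. Steps between low values gave about 28230000 coding reads in heart RPF, 28650000 in TA RPF, 9340000 in heart RNA and 16100000 in TA RNA, so 1 RPM of footprints was about 28.2 reads in heart and 28.6 in TA. With 1 library per tissue no difference has a replicate check, and no test was made. Ranges in brackets are 95% intervals from read numbers and cover counting error only, since PCR reads are not independent molecules and no molecular identifiers are named. A gene is called higher or lower where log2 of (heart + 0.1) over (TA + 0.1) RPM was at least 1 or at most -1, that is at least 2-fold on that scale, which understates changes of low genes. The bracketed intervals leave out this 0.1 RPM, so they belong to a slightly different ratio from the value before them. The labels fitted the defining markers. Cardiac troponin I, Tnni3, had 9501 RPM in heart and 1.68 RPM in TA, and fast skeletal troponin I, Tnni2, had 9.74 RPM in heart and 16440 RPM in TA.

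Of the 9843 genes, 2964 (30.1%) met the 2-fold rule upward in heart and 498 (5.06%) met it downward. The median gene stood 1.51-fold higher in heart, a log2 ratio of 0.60, so class medians below are read against 0.60. After subtraction of this median, 1176 genes (11.9%) were higher by the same rule and 1185 (12%) lower, so that the excess of higher genes was not present on the centred scale. Class counts below are read against 30.1% and 5.06%, or 11.9% and 12% after centring. Large differences were few: 67 genes passed 16-fold upward in heart and 41 passed it downward, and at 64-fold the numbers were 21 upward and 16 downward.

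Footprints were spread over more genes in heart than in TA. In heart 78 genes held 50% of all coding footprints, against 19 genes in TA, and the 50 genes with the most footprints held 44.8% in heart and 61.6% in TA. For RNA the 50 leading genes held 36.8% in heart and 58.1% in TA. These are shares of reads, and a long coding sequence collects more reads at equal density. The leading gene in heart was Myh6, the fast cardiac myosin heavy chain, with 9.09% of footprints, followed by the tropomyosin gene Tpm1 with 4.91% and the calcium pump gene Atp2a2 with 3.75%. The leading gene in TA was Myh4, the fast skeletal myosin heavy chain, with 13.1%, followed by the calcium pump gene Atp2a1 with 6.51% and Ttn, titin, with 5.23%. Myh6 was listed for heart alone and Myh4 for TA alone, and an unlisted gene is not a 0, since no source used here states how genes came to be listed. Genes listed for 1 tissue alone numbered 885 in heart and 446 in TA, and held 10.7% of heart footprints and 18.1% of TA footprints.

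Divided by coding length, the order changed. Tpm1, the filament protein that moves over actin to open myosin binding sites, was first in both tissues, with 57635 RPM per kb in heart and 36091 RPM per kb in TA. Second in heart was Pln, phospholamban, a small membrane protein that restrains the calcium pump, with 50914 RPM per kb. Second in TA was Acta1, skeletal actin, with 35024 RPM per kb. Titin was far down by density, with 218 RPM per kb in heart and 507 RPM per kb in TA.

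**Figure D1:**
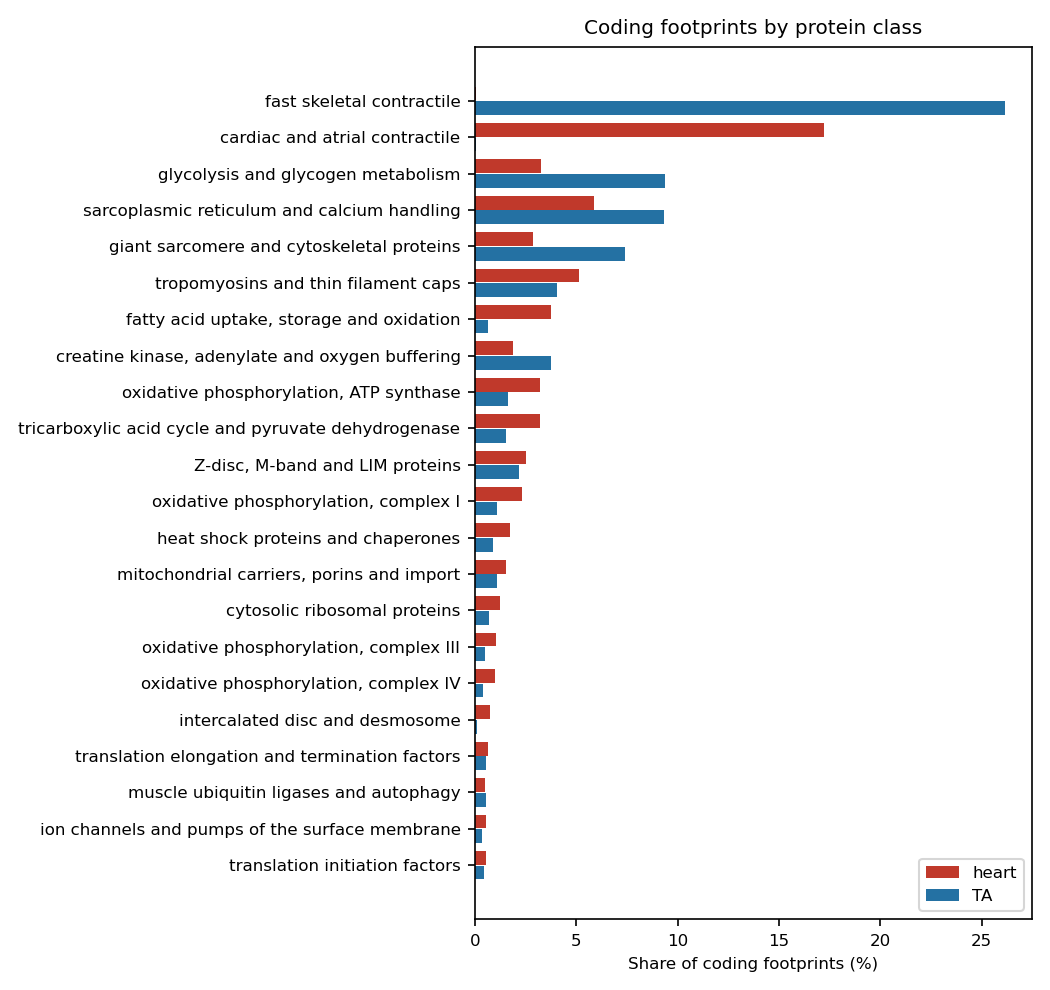
Share of all coding footprints (%, horizontal axis) held by the 22 protein classes with the largest shares, with heart as the upper red bar and TA as the lower blue bar of each pair. The cardiac contractile class held 17.2% in heart and 0.0590% in TA, and the fast skeletal class held 0.0422% in heart and 26.2% in TA.

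Contractile genes of the cardiac type held 17.2% of heart footprints and 0.0590% of TA footprints, and those of the fast skeletal type held 0.0422% of heart footprints and 26.2% of TA footprints. All 7 cardiac contractile genes that could be compared passed 2-fold upward, with a median log2 ratio of 8.26, and all 7 fast skeletal genes passed it downward, with a median of -10.71. Of the other listed members Myh6 and Myh7b were listed for heart alone, at 90515 RPM and 51.6 RPM, and Myl4, Myh1, Myh2, Myh4 and Actn3 for TA alone. Both sets are defined by the tissue they are known from, so their direction is a check of the tissues. The sizes differed among members. Tnni3, the inhibitory troponin subunit, had 9501 RPM in heart and 1.68 RPM in TA, a log2 ratio of 12.38 (95% interval 12.06 to 12.91), the highest of all genes with a mean of at least 10 RPM of footprints. Actc1, cardiac actin, had 23504 RPM in heart and 440 RPM in TA, a log2 ratio of 5.74, the smallest of the 7. Among the fast skeletal genes Tnnt3, fast troponin T, had 6.34 RPM in heart and 19084 RPM in TA, a log2 ratio of -11.53. Acta1 had 360 RPM in heart and 39507 RPM in TA, a log2 ratio of -6.78, the smallest change of that set.

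**Figure D2:**
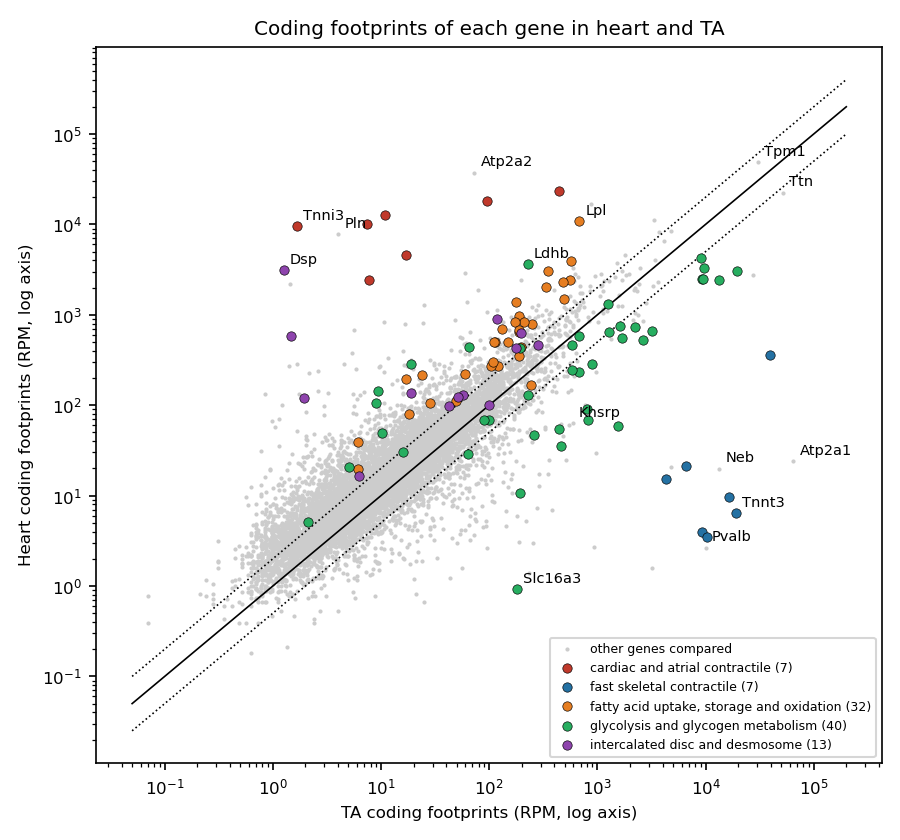
Coding footprints of each of the 9843 genes in heart (vertical, RPM, log axis) and TA (horizontal, RPM, log axis), with 5 classes in colour, the solid line at equality and dotted lines at 2-fold. Cardiac contractile genes lie far above the line and fast skeletal genes far below it, while fatty acid genes lie above it by smaller amounts.

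The forms of a pair can be close in sequence, which bears on how short footprints are told apart. The coding stretches of 90 bases in which the forms are most alike are printed for the calcium pump and troponin C, from GENCODE M21 (GRCm38) transcripts, 5′ to 3′, with capitals at the bases that differ between the forms. The calcium pump pair, on chromosome 5 for Atp2a2 and chromosome 7 for Atp2a1, differs at 7 of 90 bases and shares a run of up to 44 bases.
Atp2a2: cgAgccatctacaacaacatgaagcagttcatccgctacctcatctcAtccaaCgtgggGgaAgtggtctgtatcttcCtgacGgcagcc
Atp2a1: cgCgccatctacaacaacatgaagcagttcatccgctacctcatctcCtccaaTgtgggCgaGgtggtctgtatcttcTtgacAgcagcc
The troponin C pair, on chromosome 14 for Tnnc1 and chromosome 2 for Tnnc2, differs at 21 of 90 bases even where it is most alike, and the whole coding sequences share no run over 21 bases.
Tnnc1: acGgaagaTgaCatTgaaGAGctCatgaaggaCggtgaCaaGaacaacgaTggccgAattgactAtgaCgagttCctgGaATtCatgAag
Tnnc2: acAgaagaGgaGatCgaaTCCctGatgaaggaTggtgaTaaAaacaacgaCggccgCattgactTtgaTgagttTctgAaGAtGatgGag
Windows of 30 bases were searched for exact matches in the protein-coding transcripts of other genes. Over whole coding sequences, the share of windows with such a match was 1.45% for Actc1, 5.44% for Acta1, 0.483% for Atp2a2 and 0.948% for Atp2a1. For the myosin heavy chains it was 34.9% for Myh6, mainly shared with Myh7, and 32.3% for Myh4, mainly shared with Myh1. The assignment of reads from shared stretches was not stated, so levels of the myosin heavy chains are uncertain between copies. Of 237 named genes with a matching transcript, 189 had no shared window. Near matches and transcripts not classed as protein-coding, such as those of pseudogenes, were not searched, so these 189 need not be free of ambiguous reads.

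The regulatory light chains were among the 7 genes of each set. Myl2, the cardiac regulatory light chain, had 10120 RPM in heart and 7.45 RPM in TA, and Mylpf, its fast skeletal counterpart, had 3.97 RPM in heart and 9186 RPM in TA. Mybpc1, the slow type of myosin binding protein C, reached 1.59 RPM in heart and 3204 RPM in TA, a log2 ratio of -10.89. Neb, nebulin, the ruler of the skeletal thin filament, had 19.8 RPM in heart and 13313 RPM in TA, a log2 ratio of -9.38. Titin, the elastic filament that spans from Z-disc to M-band, had 22405 RPM in heart and 52199 RPM in TA, a log2 ratio of -1.22. Tropomyosins and filament caps had 1 of 6 genes higher and 1 lower, also after centring, and the other 4 were under 2-fold. Tpm2, another tropomyosin gene, was listed for TA alone at 8236 RPM. Tpm1 footprints had 48932 RPM in heart and 30641 RPM in TA, a log2 ratio of 0.68, while its RNA had 10584 RPM in heart and 16040 RPM in TA, a log2 ratio of -0.60, both under 2-fold. Lmod2, leiomodin, which builds thin filaments, had 1129 RPM in heart and 117 RPM in TA, and Tmod4, a filament cap, had 25.0 RPM in heart and 517 RPM in TA. Of the slow skeletal genes 1 of 2 compared was lower in heart, namely Mybpc1.

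Of the 16 giant sarcomere and cytoskeletal proteins compared, 4 were higher in heart and 4 lower, with a median of -0.13, beside 30.1% higher and 5.06% lower over all genes. After centring 2 were higher and 7 lower, with a median of -0.72. Macf1, a linker of actin and microtubules, was highest among them, with 530 RPM in heart and 81.6 RPM in TA.

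Z-disc, M-band and LIM-domain genes were divided, with 8 of 32 higher in heart, 9 lower and a median log2 ratio of -0.16, beside 30.1% higher and 5.06% lower over all genes. After centring 7 were higher and 14 lower, with a median of -0.76. Fhl2, a LIM protein, had 2195 RPM in heart and 1.43 RPM in TA, a log2 ratio of 10.49, the fourth highest of the genes with a mean of at least 10 RPM. Its relative Fhl1 had 50.9 RPM in heart and 222 RPM in TA. Csrp3, muscle LIM protein, had 1296 RPM in heart and 24.7 RPM in TA, and Ankrd1, a stress-responsive ankyrin repeat protein, had 822 RPM in heart and 10.7 RPM in TA. On the other side Pdlim3 had 5.17 RPM in heart and 218 RPM in TA, and Myot, myotilin, had 29.5 RPM in heart and 968 RPM in TA. Actn2, the actin crosslinker of the Z-disc, had 4570 RPM in heart and 1800 RPM in TA, a log2 ratio of 1.34. Less than 2-fold apart were 15 of the 32. Des, the intermediate filament protein desmin, had 1903 RPM in heart and 2183 RPM in TA, and Myom1, myomesin, had 2175 RPM in heart and 2403 RPM in TA.

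Calcium handling held 5.85% of heart footprints and 9.33% of TA footprints. Of its 23 compared genes 8 were higher in heart and 8 lower, beside 30.1% higher and 5.06% lower over all genes. After centring 8 were higher and 10 lower. The median log2 ratio was 0.32, and -0.28 after centring. The pump changed form. Atp2a2 had 37407 RPM in heart and 72.6 RPM in TA, a log2 ratio of 9.01, and Atp2a1 had 23.9 RPM in heart and 65001 RPM in TA, a log2 ratio of -11.40. Pln had 7790 RPM in heart and 4.02 RPM in TA, a log2 ratio of 10.88 (95% interval 10.66 to 11.20). Its whole coding sequence before the stop codon, on chromosome 10, is 156 bases, shown because so short a sequence held the second highest footprint density in heart. The start codon is in capitals.
Pln: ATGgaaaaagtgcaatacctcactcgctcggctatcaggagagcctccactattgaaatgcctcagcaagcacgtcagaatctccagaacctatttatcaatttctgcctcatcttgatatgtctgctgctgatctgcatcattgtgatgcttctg
Pvalb, parvalbumin, the soluble calcium buffer of fast fibres, had the lowest ratio of all named genes, with 2.66 RPM in heart and 10044 RPM in TA (log2 ratio -11.83, 95% interval -12.23 to -11.56). The calcium store proteins also changed form, with Casq2 at 1380 RPM in heart and 62.7 RPM in TA and Casq1 at 20.6 RPM in heart and 4760 RPM in TA. Slc8a1, the sodium-calcium exchanger that clears calcium from heart cells, had 810 RPM in heart and 24.5 RPM in TA. Cacna1c, the pore of the cardiac L-type calcium channel, had 286 RPM in heart and 4.58 RPM in TA. Ryr2, the cardiac release channel, was listed for heart alone at 3969 RPM, and Ryr1, the skeletal one, for TA alone at 5234 RPM.

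Genes of the intercalated disc were higher in heart in 11 of the 13 compared, with none lower and a median log2 ratio of 1.36, and after centring in 6. Over all genes 30.1% were higher and 5.06% lower, or 11.9% and 12% after centring. Dsp, desmoplakin, which ties desmosomes to desmin, had 3149 RPM in heart and 1.26 RPM in TA, a log2 ratio of 11.18, second among all genes with a mean of at least 10 RPM. Cdh2, N-cadherin, had 590 RPM in heart and 1.47 RPM in TA, a log2 ratio of 8.55, and Pkp2, plakophilin, had 121 RPM in heart and 1.96 RPM in TA. In TA each of these 3 was under 2 RPM. Ctnnb1, beta-catenin, with 467 RPM in heart and 284 RPM in TA, and Tln2, talin, with 101 RPM in heart and 98.6 RPM in TA, differed by less than 2-fold. The desmosomal cadherins Dsg2 and Dsc2 were listed for heart alone at 140 RPM and 163 RPM. Myzap, a disc protein outside the class list, had 680 RPM in heart and 5.67 RPM in TA.

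Surface channels and pumps had 6 of 20 genes higher in heart, near the 30.1% of all genes, and 7 lower, or 4 and 7 after centring. Gja1, the gap junction protein connexin 43, had 335 RPM in heart and 11.7 RPM in TA, a log2 ratio of 4.83. Clcn1, the chloride channel that steadies the skeletal membrane, had 4.64 RPM in heart and 143 RPM in TA, a log2 ratio of -4.92. Scn4a, the skeletal sodium channel, had 59.7 RPM in heart and 548 RPM in TA. Chrnb1, a subunit of the acetylcholine receptor of the neuromuscular junction, had 5.67 RPM in heart and 36.2 RPM in TA, and was the single lower gene of 5 compared for that junction, with 1 higher.

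Genes of the dystrophin complex and membrane repair had 6 of 18 higher in heart, near the 30.1% of all genes, and 4 lower, with a median log2 ratio of 0.49. After centring 1 was higher and 6 lower, with a median of -0.11. The largest differences were of Ano5, a membrane repair protein, with 1.38 RPM in heart and 232 RPM in TA, and of Capn3, a muscle calpain, with 3.08 RPM in heart and 188 RPM in TA. Itga7, the laminin-binding integrin of muscle, had 331 RPM in heart and 80.1 RPM in TA. Ubiquitin ligase and autophagy genes had 5 of 20 higher and 5 lower, but 2 higher and 8 lower after centring. They ran from Fbxl22, with 137 RPM in heart and 3.22 RPM in TA, to Asb5, with 17.3 RPM in heart and 351 RPM in TA. Trim63, the ligase MuRF1 of muscle breakdown, which is counted with the M-band genes, had 430 RPM in heart and 369 RPM in TA.

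Heart and skeletal forms were set against each other in 32 pairs, of which 20 had both forms listed in both tissues. The share of the heart form within its pair, per coding length, was higher in heart than in TA in 20 of 20 pairs. Which form counted as the heart form was assigned from textbook knowledge, so this direction is a check of the tissues. In 12 pairs the majority form differed between the tissues. In 10 of these the heart form made up over 98% in heart. Its share was 99.9% in heart and 0.106% in TA for the calcium pump, and 98.5% in heart and 1.27% in TA for calsequestrin. Lactate dehydrogenase was less complete, with Ldhb at 88.2% in heart and 8.57% in TA. In 7 pairs the form set as skeletal was the majority in both tissues. The other form of such a pair need not be typical of heart, as with the liver form Phka2. Ckb, the brain-type creatine kinase, made up 4.54% in heart and 0.0916% in TA of its pair with Ckm, and Slc25a5 made up 3.95% in heart and 0.941% in TA of the ADP/ATP carrier pair. Jph2, junctophilin, was the majority in both, with 91.0% in heart and 59.3% in TA.

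**Figure D3:**
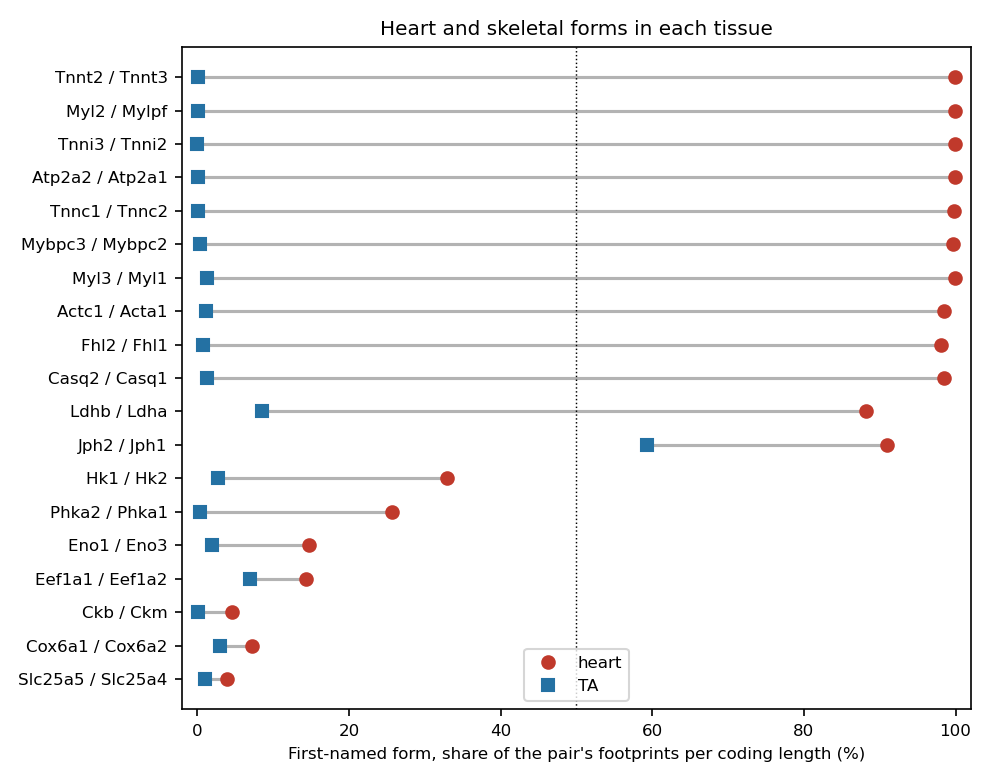
Share of the first-named form in its pair's footprints per coding length (%, horizontal axis) for 19 of the 20 pairs with both forms listed in both tissues, with heart as red circles and TA as blue squares. The first-named form was assigned to heart from textbook knowledge. The heart point lies right of the TA point in all 19 pairs shown, and 11 of them cross the dotted line at 50%.

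Genes of fatty acid use were the most uniformly higher metabolic class, with 30 of 32 higher in heart, none lower and a median log2 ratio of 2.05 beside 0.60 over all genes. On the centred scale 25 were higher and 1 lower. The shares over all genes were 30.1% higher and 5.06% lower, or 11.9% and 12% after centring. The class held 3.76% of heart footprints and 0.652% of TA footprints. Lpl, lipoprotein lipase, which frees fatty acids from circulating fat, had 10835 RPM in heart and 677 RPM in TA, a log2 ratio of 4.00. Uptake and carriage followed, with the fatty acid transporter Cd36 at 2426 RPM in heart and 556 RPM in TA and the binding protein Fabp3 at 3034 RPM in heart and 347 RPM in TA. The mitochondrial oxidation enzyme Hadha had 3917 RPM in heart and 575 RPM in TA. Dgat2, which makes triglyceride for storage, had 196 RPM in heart and 17.1 RPM in TA. The exception in direction was Ucp3, a mitochondrial carrier, with 166 RPM in heart and 241 RPM in TA, a difference under 2-fold. Of 16 genes of ketone and branched-chain amino acid use 11 were higher (3 after centring), led by Oxct1, which activates ketone bodies, with 949 RPM in heart and 236 RPM in TA.

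The mitochondrial respiratory chain differed by less, and in the same direction. Over its 5 complexes 38 of 80 genes were higher in heart and none lower, the median log2 ratio was 0.96, and the class held 8.00% of heart footprints and 3.87% of TA footprints. Complex IV had 10 of 14 genes higher (median 1.18), ATP synthase 9 of 18 (median 0.99) and complex I 15 of 34 (median 0.91). Complex III had 3 of 10 higher (median 0.83) and complex II 1 of 4 (median 0.80). Over all genes 30.1% were higher and 5.06% lower, so complexes III and II were near or below the share higher. Among the larger values Uqcrh, a hinge subunit of complex III, had 3332 RPM in heart and 597 RPM in TA, and Ndufv3 of complex I had 937 RPM in heart and 158 RPM in TA. After centring 14 of the 80 were higher and 1 was lower. The higher ones were 6 of complex I, 4 of complex IV, 3 of ATP synthase, 1 of complex III and 0 of complex II. In the tricarboxylic acid cycle 10 of 24 genes were higher and 1 lower, or 2 and 1 after centring. Idh2, the NADP-dependent isocitrate dehydrogenase, stood out with 2450 RPM in heart and 197 RPM in TA, a log2 ratio of 3.64, whereas the NAD-dependent subunit Idh3a had 439 RPM in heart and 441 RPM in TA. Pdp1, which switches pyruvate dehydrogenase on, had 38.9 RPM in heart and 104 RPM in TA.

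Glycolysis and glycogen genes went the other way as a class but not gene by gene. Of 40 compared, 9 were higher in heart and 23 lower (7 and 26 after centring), with a median log2 ratio of -1.19. All genes gave 30.1% higher and 5.06% lower, or 11.9% and 12% after centring. The class held 3.27% of heart footprints and 9.36% of TA footprints. The lower genes included enzymes of glycogen breakdown and of glycolysis. Pygm, muscle glycogen phosphorylase, had 2419 RPM in heart and 13320 RPM in TA, Pfkm, muscle phosphofructokinase, had 2515 RPM in heart and 9203 RPM in TA, and Aldoa, aldolase, had 3067 RPM in heart and 19662 RPM in TA. The glycerol phosphate shuttle enzymes Gpd1 and Gpd2 were also lower, with Gpd1 at 91.1 RPM in heart and 799 RPM in TA. The higher genes were mostly other forms of the same enzymes. Hk1 had 284 RPM in heart and 18.9 RPM in TA, Pfkl had 144 RPM in heart and 9.37 RPM in TA, and Ldhb had 3658 RPM in heart and 227 RPM in TA, a log2 ratio of 4.01. The lactate transporters divided in the same manner, with Slc16a1 at 437 RPM in heart and 64.9 RPM in TA and Slc16a3 at 0.920 RPM in heart and 180 RPM in TA (log2 ratio -7.47), the lowest ratio of the class.

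High-energy phosphate and oxygen buffering showed both directions, with 4 of 12 genes higher in heart and 3 lower, or 4 and 4 after centring. Over all genes 30.1% were higher and 5.06% lower, or 11.9% and 12% after centring, so 4 of 12 higher was near the uncentred share. Ckm, muscle creatine kinase, had 2788 RPM in heart and 27303 RPM in TA, a log2 ratio of -3.29, while the mitochondrial form Ckmt2 had 2795 RPM in heart and 1954 RPM in TA. Mb, myoglobin, had 11301 RPM in heart and 3363 RPM in TA. Among antioxidant genes 14 of 29 were higher and 1 lower, with the metallothionein Mt1 at 273 RPM in heart and 9.72 RPM in TA. Among mitochondrial carriers and import factors 15 of 32 were higher and 1 lower. After centring these counts were 6 higher and 4 lower for antioxidant genes and 5 higher and 3 lower for carriers and import.

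**Figure D4:**
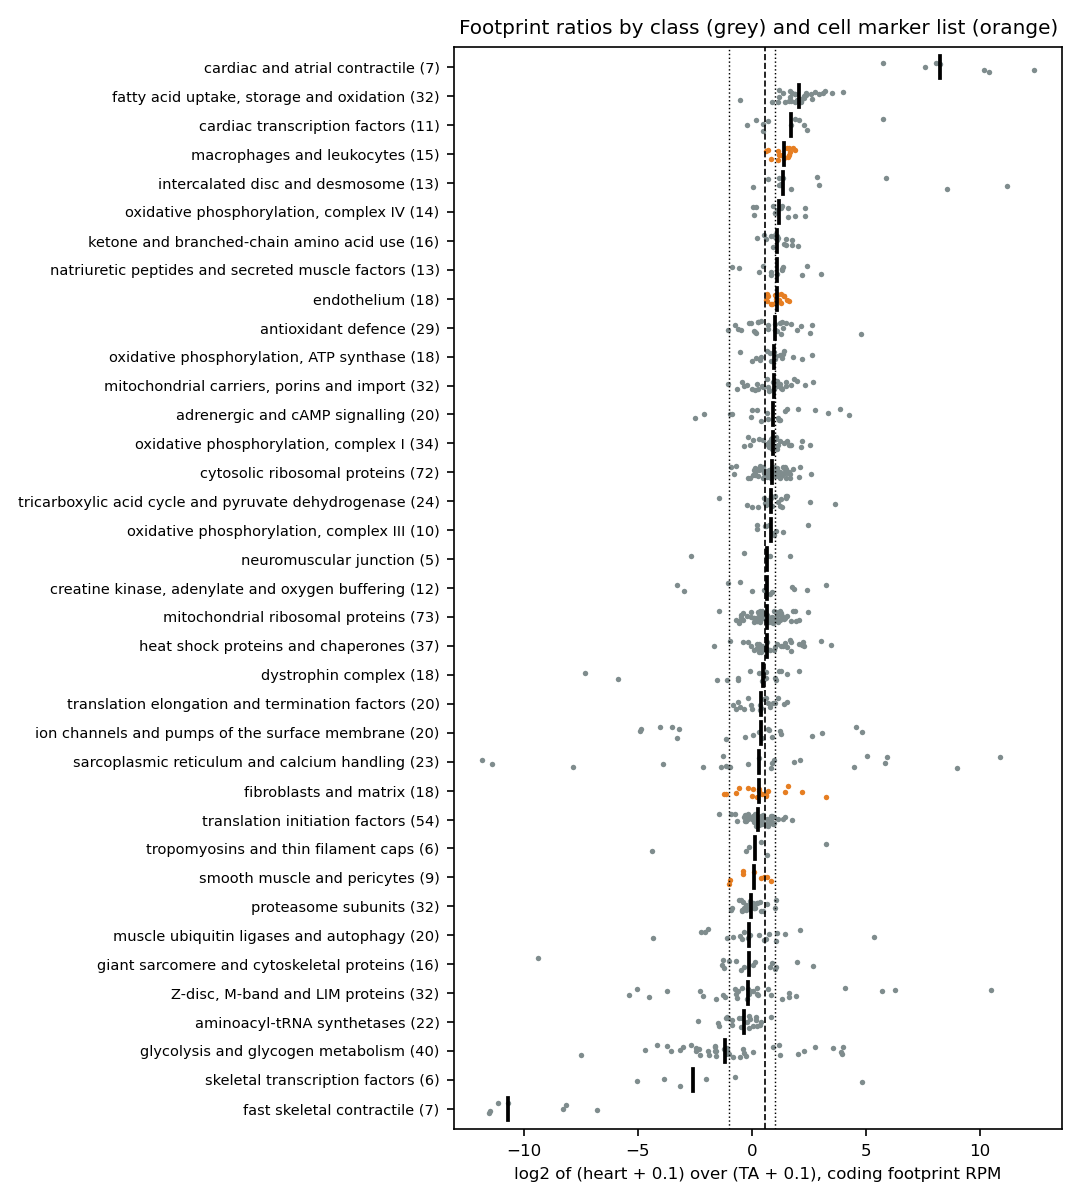
log2 ratio of heart over TA footprints (horizontal axis) of each gene, by class (grey) and by cell marker list (orange), with the number compared in brackets and a black bar at each median. The dashed line is the median of all genes at 0.60, and dotted lines are at 2-fold. Fatty acid genes lie almost wholly right of the dashed line, and the aminoacyl-tRNA synthetases have a median of -0.33.

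The machinery of protein synthesis did not move as a block. Its counts stand beside 30.1% higher and 5.06% lower over all genes, or 11.9% and 12% after centring. Of 72 cytosolic ribosomal protein genes 28 were higher in heart and none lower, with a median log2 ratio of 0.87 for footprints and 0.47 for RNA. After centring 7 were higher and 3 lower, with a median of 0.27. Rpl22 had 192 RPM in heart and 43.7 RPM in TA, and the muscle-restricted paralogue Rpl3l had 295 RPM in heart and 559 RPM in TA while Rpl3 had 82.3 RPM in heart and 27.4 RPM in TA. Rpl13a had the highest ratio of the class (2.59), with 230 RPM in heart and 38.2 RPM in TA, but 97.6% of its coding windows also occur in another gene's transcript. Mitochondrial ribosomal proteins had 21 of 73 higher and 1 lower, near the 30.1% of all genes, with a median of 0.65. After centring 6 were higher and 7 lower, both below the shares of all genes. Elongation and termination factors had 4 of 20 higher and none lower, but 0 higher and 4 lower after centring. The aminoacyl-tRNA synthetases, which load amino acids onto tRNA, had 0 of 22 higher and 6 lower, with a median of -0.33, and 11 lower after centring. Aimp2, a scaffold of the synthetase complex, was lowest with 30.0 RPM in heart and 156 RPM in TA. Genes with the initiation factor symbol Eif, which include regulators and 4 Argonaute genes under older names, had 4 of 54 higher and 1 lower. After centring 1 was higher and 4 lower, and all of these counts were below the shares of all genes. The proteasome had 2 of 32 higher, none lower and a median of -0.05, and after centring 0 higher and 6 lower.

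Chaperones had 15 of 37 genes higher in heart and 1 lower, beside 30.1% and 5.06% of all genes. Their median of 0.65 was near the 0.60 of all genes, and after centring 9 were higher and 2 lower. The higher ones included the endoplasmic reticulum chaperones Hspa5, with 1206 RPM in heart and 250 RPM in TA, and Canx, with 941 RPM in heart and 207 RPM in TA. Hspb7, a small heat shock protein of heart and muscle, had 1067 RPM in heart and 95.9 RPM in TA. Hspa8, the constitutive cytosolic chaperone, had 2758 RPM in heart and 1824 RPM in TA, a difference under 2-fold.

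Transcription and signalling genes were divided as well. Of 11 genes of cardiac and oxidative transcription control 6 were higher in heart and none lower, beside 30.1% and 5.06% of all genes. Hopx, a cofactor without DNA binding of its own, had 143 RPM in heart and 2.59 RPM in TA, and Ppargc1a, a coactivator of mitochondrial genes, had 128 RPM in heart and 34.7 RPM in TA. The cardiac factors Gata4, Gata6, Nkx2-5 and Tbx20 were listed for heart alone, at 50.9 RPM, 52.6 RPM, 48.7 RPM and 62.1 RPM. Of 6 skeletal factors 4 were lower in heart and 1 higher. The higher one was Prox1, with 35.1 RPM in heart and 1.15 RPM in TA. Among genes of adrenergic and cAMP signalling, through which heart rate and force are raised, 10 of 20 were higher and 2 lower (5 and 4 after centring), beside 30.1% and 5.06% of all genes. Examples are the phosphodiesterase genes Pde3a at 119 RPM in heart and 6.02 RPM in TA and Pde4d at 23.7 RPM in heart and 134 RPM in TA. Secreted factors had 7 of 13 higher and none lower, but 3 higher and 2 lower after centring, where 11.9% and 12% of all genes were higher and lower. Among the higher was Fgf1, a fibroblast growth factor, with 76.2 RPM in heart and 9.23 RPM in TA. The natriuretic peptide genes Nppa and Nppb and the peptide-processing enzyme Corin were listed for heart alone, at 74.0 RPM, 58.6 RPM and 433 RPM, and Mstn, the growth inhibitor myostatin, for TA alone at 44.7 RPM.

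Promoter sequence was set beside the largest differences, as a description. Windows of 250 bases before to 50 after a gene's start, from RefSeq (GRCm38.p6), were found for 51 of the 67 genes past 16-fold upward in heart, 31 of the 41 past it downward and 7892 of all genes compared. Genes had 1.33, 1.29 and 1.28 windows each on average, and a gene counted where any window held the motif. On both strands 5 motifs were searched, by exact letters except for the Mef2-type motif. That motif was fixed at its outer bases and allowed any base at its central positions. The E-box CAGCTG, a type bound by myogenic factors, occurred in 27.5% (14) of the higher genes, 38.7% (12) of the lower genes and 18.1% of all compared. The motif AGATAA, of the type bound by Gata factors, occurred in 21.6% (11) of the higher genes, 3.23% (1) of the lower genes and 7.26% of all compared. The muscle motif CATTCC occurred in 15.7% of the higher genes, 29.0% of the lower genes and 14.1% of all compared. The letters TATAAA occurred in 13.7% of the higher genes, 16.1% of the lower genes and 8.77% of all compared. The Mef2-type motif, in this looser form, occurred in 7.84% of the higher genes, 9.68% of the lower genes and 3.92% of all compared. No difference between these shares was tested. The matches do not overlap one another in the windows shown. The windows of Pln and Mylpf are printed 5′ to 3′ on the gene's strand with matches in capitals, since these genes lie at opposite ends of the comparison. The window of Pln lies at chr10:53337436-53337735 on the plus strand and holds the letters TATAAA near its upstream end. They are followed by the Gata-factor motif on the other strand (hence its reverse complement in capitals) and then the E-box.
Pln: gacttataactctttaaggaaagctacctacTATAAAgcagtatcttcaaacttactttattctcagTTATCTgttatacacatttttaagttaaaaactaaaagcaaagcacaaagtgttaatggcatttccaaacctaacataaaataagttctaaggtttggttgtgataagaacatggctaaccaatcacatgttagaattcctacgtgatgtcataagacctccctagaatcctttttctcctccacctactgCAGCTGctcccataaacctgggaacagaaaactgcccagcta
The window of Mylpf lies at chr7:127211358-127211657 on the plus strand and holds the E-box.
Mylpf: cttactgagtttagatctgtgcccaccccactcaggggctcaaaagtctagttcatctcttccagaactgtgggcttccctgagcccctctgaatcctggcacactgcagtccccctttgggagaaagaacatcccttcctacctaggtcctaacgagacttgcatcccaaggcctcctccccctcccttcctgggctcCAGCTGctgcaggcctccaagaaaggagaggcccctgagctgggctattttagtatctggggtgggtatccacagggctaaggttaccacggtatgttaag

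Markers of cells other than muscle were measured in the same libraries. Over all genes 30.1% were higher in heart and 5.06% lower. The median log2 ratio of all genes was 0.60 for footprints and 0.70 for RNA. In bulk tissue fewer cells of a type and less RNA per cell cannot be told apart. Of 18 endothelial markers 12 were higher in heart and none lower, with a median log2 ratio of 1.09 for footprints and 1.93 for RNA, and their summed share was 0.189% of heart footprints and 0.0866% of TA footprints. After centring 1 of the 18 was higher. Of 15 macrophage and leukocyte markers 12 were higher and none lower, with a median of 1.39 for footprints and 2.22 for RNA, and 5 were higher after centring. Smooth muscle and pericyte markers had 0 of 9 higher or lower, with a median of 0.10 for footprints and 1.19 for RNA, and after centring 4 were lower and the footprint median was -0.50. Fibroblast and matrix genes had 4 of 18 higher and 2 lower (3 and 4 after centring, with the median log2 ratio at 0.31 before and -0.28 after), with the collagen gene Col1a1 at 241 RPM in heart and 528 RPM in TA and Fbln1, fibulin, at 290 RPM in heart and 30.9 RPM in TA. Of red cell genes Hbb-b1, a beta globin with near-identical copies, had 16697 RPM in heart and 864 RPM in TA, and Alas2, the haem synthesis enzyme of red cells, had 265 RPM in heart and 9.58 RPM in TA. The adipocyte genes Plin1, Cidec and Adipoq were listed for TA alone, at 6.72 RPM, 3.46 RPM and 5.74 RPM, and of the 3 adipocyte genes compared Fasn had 51.0 RPM in heart and 49.5 RPM in TA and Pck1 had 5.42 RPM in heart and 9.23 RPM in TA. The third, Car3, was lower, with 2.73 RPM in heart and 928 RPM in TA, but it is also a carbonic anhydrase of muscle. Of nerve and Schwann cell genes 1 of 3 compared was higher, and of satellite cell genes the 1 compared, Vcam1, was higher, with 23.9 RPM in heart and 5.95 RPM in TA. No atrial marker was listed for both tissues. The part of these cells in the differences of other genes was not tested.

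Footprint ratios were compared with RNA ratios from the same tissues, where 35% of genes were higher in heart by the 2-fold rule and 3.88% lower, or 13.5% and 10.4% after centring. Across genes, which are not independent replicates, Pearson's r between the ratios was 0.88 and Spearman's rho 0.79. At least 2-fold differences in the same direction were found in 2265 higher and 309 lower genes. In footprints alone 699 genes were higher and 189 lower, and in RNA alone 1183 were higher and 73 lower. After centring 793 were higher in both, 383 in footprints alone and 539 in RNA alone. The centred numbers lower were 752 in both, 433 in footprints alone and 274 in RNA alone. Before centring, opposite directions were found in 2 genes, which were picked out after their values were seen. Khsrp, an RNA-binding decay factor, had footprints of 63.9 RPM in heart and 591 RPM in TA, and RNA of 41.1 RPM in heart and 19.7 RPM in TA. Napb had footprints of 4.43 RPM in heart and 1.50 RPM in TA, and RNA of 2.78 RPM in heart and 7.95 RPM in TA.

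Where RNA averaged 10 RPM or more, the 10 genes whose footprint ratio fell furthest below their RNA ratio, both centred, included 7 genes of fast or slow skeletal muscle. For Pvalb the footprint log2 ratio was -11.83 and the RNA ratio -7.78, with RNA at 29.9 RPM in heart and 6607 RPM in TA. For Tnnt3 the footprint ratio was -11.53 and the RNA ratio -8.85. Relative to RNA, the footprints of these 7 genes were lower in heart than in TA. Mybpc3, the cardiac form of myosin binding protein C, had a footprint ratio of 8.06 and an RNA ratio of 11.27, with RNA at 5296 RPM in heart and 2.05 RPM in TA. Among the 10 with the footprint ratio furthest above the RNA ratio were Pln, with 10.88 for footprints and 8.60 for RNA, and Mef2c, a muscle transcription factor, with 0.48 for footprints and -2.31 for RNA. Also among these 10 were Rpl13a, Mapkapk5 and Ankrd23, in which 97.6%, 97.6% and 71.7% of coding windows also occur in another gene's transcript.

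**Figure D5:**
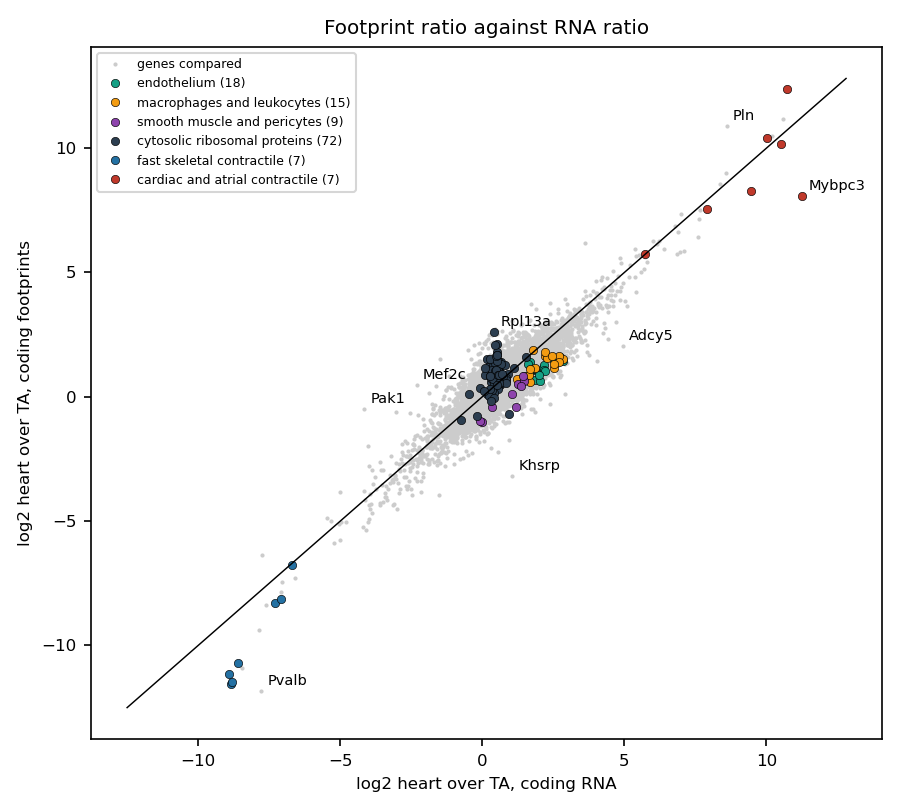
log2 ratio of heart over TA for coding footprints (vertical) against the same for coding RNA (horizontal), 1 point per gene, with 6 lists in colour and the line at equality. All 18 endothelial markers and all 15 macrophage markers but Cd68 lie below the line, with footprint medians of 1.09 and 1.39 and RNA medians of 1.93 and 2.22, and most ribosomal protein genes lie above it.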

How the data were processed

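Ribosome footprints (RPF) and total RNA were measured in 1 library each from heart and from tibialis anterior. Per the labels' protocols, lysates were made in cycloheximide, footprints were cut with RNase I and pelleted, and RNA was depleted of ribosomal RNA. Per the submitters' processing notes, Bowtie and the build mm9 were used. Bowtie's version and the handling of reads with several places were not stated there. The deposited values are RPM per coding sequence, per the file headers, and were not divided by length by the authors. Column sums of 993831 to 998118 show that values are relative to coding reads. The worth of 1 read was taken from the steps between low values. In RNA these were whole within 0.005 RPM, while in RPF the rounding is a sizeable part of a step, so read numbers there are less sure.

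Symbols on several rows (5 in heart, 4 in TA) kept the row whose coding values summed highest. Each ratio was log2 of (heart + 0.1) over (TA + 0.1), kept where RNA averaged 1 RPM or more. A 2-fold rule replaced a test, since there was 1 library per group. Ratio intervals are exact (conditional Clopper-Pearson), at 95%, for read numbers scaled to depth without the added 0.1 RPM. Genes fell in 35 classes and 9 marker lists, and classes were described by counts and medians. The classes, lists and members were chosen with earlier results of these data known. Named genes were the 15 highest and 15 lowest ratios at a mean RPF of at least 10 RPM, the 15 with the most footprints in each tissue, members of the form pairs, the 3 with the most footprints and the extremes of each list, the 10 with RPF ratio furthest above and below the RNA ratio at a mean RNA of at least 10 RPM, and Ttn. Other genes in the text are examples from the lists, named after their values were seen. Some genes and sequences are not reported here, and 1 form pair is left out of the plot. Sequences came from GENCODE M21 and RefSeq promoter tables, both GRCm38, and no mm9 coordinates were used. Alternatives were a pseudocount of 1 or 0.01, a minimum of 5 RPM or none, centring, library totals without the 50 leading genes, and the lowest row of repeated symbols. The computations were tested on simulated data and run with numpy 2.4.6, scipy 1.17.1, pandas 2.3.3 and matplotlib 3.10.9 under Python 3.11.15.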

Additional observations from a re-analysis of the deposited data

How the results depend on the processing

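The scale set the counts of genes past 2-fold. Against 2964 genes higher in heart and 498 lower, 1176 were higher and 1185 lower after centring on the median gene, and 1351 were higher and 1052 lower when library totals left out the 50 genes with the most footprints in each tissue. The median ratio of all genes was then 0.08, against 0.60. Other settings stayed within 1.5 times: between 2425 and 3022 genes were higher and between 443 and 508 lower under a pseudocount of 1 or 0.01, a minimum of 5 RPM or none, and the lowest row of repeated symbols. No named gene past 2-fold changed direction under any of these settings, but for most settings none could. Centring moved each log2 ratio by 0.60, leaving out the leading genes moved it by no more than that, and both are under the limit of 1. A change of pseudocount or of the RNA minimum cannot reverse a ratio. The unchanged direction is therefore no check of these genes. Smaller ratios could change sign on centring. Of 152 named genes past 2-fold, 122 remained so in the same direction after centring and 125 without the 50 leading genes. No paired analysis was possible because each group had 1 library. Low genes are limited by depth: in the less expressed tissue Tnni3 and Dsp rested on 48 and 36 footprint reads in TA, and Pvalb on 75 in heart. No result could be checked against a replicate, and animal, library and tissue cannot be told apart.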
